A study of Mus musculus with 16 samples.

Results

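The intersubunit region of mouse 28S rRNA around helix 69 was examined by Ψ-seq at 320 consecutive read-start positions, the last of which was position 3600. Every position of the range was taken, whatever its value, but the range itself was picked as one already known from these data to be dense in CMC stops. It was set against the 6878 nucleotides of the 18S, 28S, 5.8S and 5S sequences, of which 28S holds 4731. Positions count from 1 in the 28S sequence used by the study. Stops are named by the position of the read start, and the nucleotide read as modified lies 1 before it. The placement of helix 69 was not checked against a sequence, because the rRNA sequences were not used here.

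Pseudouridine is an isomer of uridine that H/ACA small nucleolar RNAs direct the enzyme dyskerin to make in rRNA. Helix 69 lies in domain IV of the large subunit, forms a bridge to the small subunit beside the decoding centre, and is known for closely spaced pseudouridines. The carbodiimide CMC leaves a stable adduct on pseudouridine, and reverse transcriptase stops next to it, so that read starts pile up in CMC-treated but not in mock-treated RNA.

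RNA came from CD4 T cells of lymph nodes of female mice, activated for 20 h with anti-CD3 and anti-CD28. All animals carried floxed Rnmt alleles (Rnmt fl/fl), the gene of the mRNA cap guanine-7 methyltransferase. The 4 control animals were CD4cre - and the 4 Rnmt cKO animals CD4cre +, in which Cre under Cd4 control deletes Rnmt in T cells. Each animal gave a CMC and a mock library from the same RNA, 16 in all. Ages were not given in the sources used here, and neither loss of Rnmt nor T cell markers could be read from rRNA stops.

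The libraries held 1130058 to 2165668 read starts, of which 41672 to 78993 fell in the region. Percent termination is the read starts at a position over those in the window of 65 nucleotides that ends there, a lower bound on the share of reads that stop. Window coverage in the region was at least 3674 read starts, the lowest value being in the mock library of control 1. That library also placed 4.47% of its 28S read starts in the region, against 5.96% to 6.78% in the other 15, and its part in the results below was not tested except where values without control 1 are given. Between libraries of the same kind, Pearson's r of log termination over the 320 positions was 0.847 to 0.987 as a description.

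The PSU score is the CMC termination of an animal over its mock termination. A site was called in a genotype at a mean CMC termination of 3% or more together with a mean PSU score of 3 or more. By this rule 10 sites were called in at least 1 genotype, which is 3.12 per 100 nucleotides. The background over all rRNA was 1.02%, the rest of 28S had 0.68 per 100 nucleotides and 18S had 1.5. Control had 7 called sites (2.19% of positions, background 0.916%) and Rnmt cKO had 10 (3.12%, background 0.931%). The density is a description with no test, since the range was chosen for it and neighbouring positions share reads. The split between genotypes depended on the window: with windows of 50, 40 or 30 nucleotides control and Rnmt cKO had 10 sites each, as stops 3390, 3482 and 3513 were then called in control and 3482 was not called in Rnmt cKO. A change in the share of ribosomes modified and a change in how often an adduct stops the enzyme cannot be told apart in these values.

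Treatment with CMC raised termination at 24 of 182 positions tested and lowered it at 45 (edgeR quasi-likelihood test with the animal as a block, Benjamini-Hochberg adjusted p under 0.05 over all rRNA). The shares were 13.2% higher and 24.7% lower, against backgrounds of 11.5% and 10.2%, and 37.9% in either direction against 21.7%. The window that ends at a position also counts read starts at CMC stops inside it, so a lower termination need not mean fewer stops. A log2 rise of at least 1 was found at 14 positions, or 7.69% of those tested, against a background of 2.21% over all rRNA and 1.47% in the rest of 28S. These 14 were selected by this rise, so the values that follow describe them and test nothing further. The next largest rise was 0.65 at stop 3478, and the smallest of the 14 was 1.02 at stop 3511, a stop outside the rule for named positions that was picked once its value was known.

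**Figure D1:**
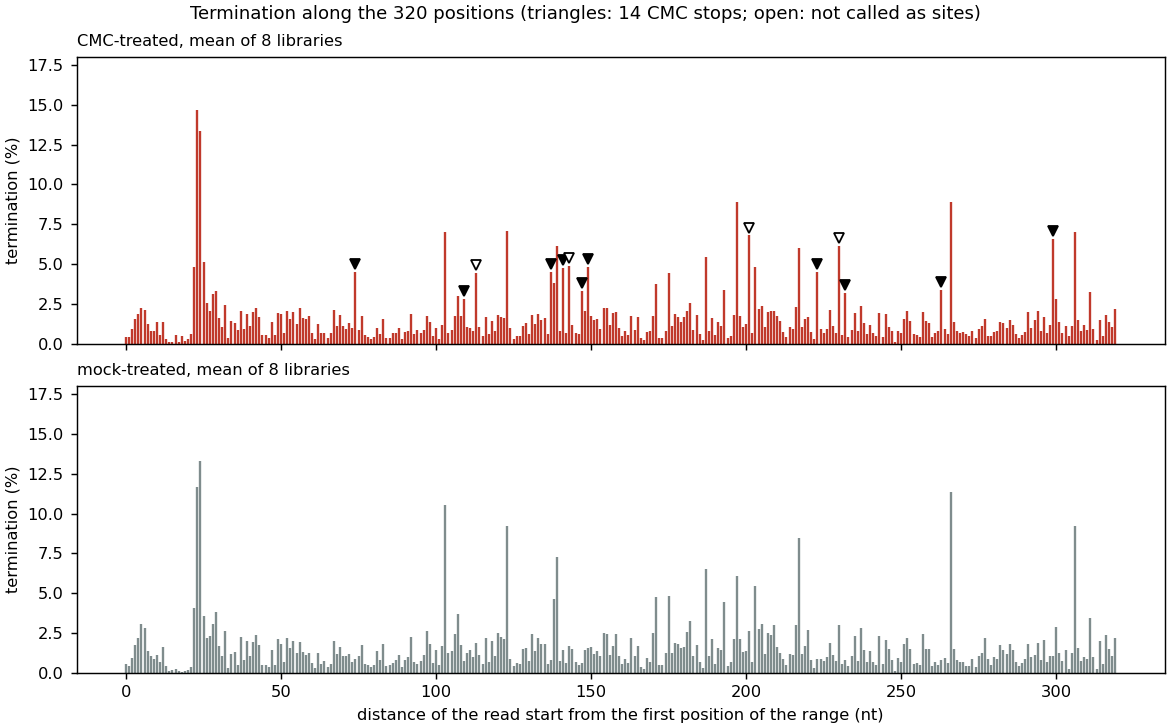
Mean percent termination in the 8 CMC and the 8 mock libraries at each of the 320 positions, against distance in nucleotides from the first position. Triangles mark the 14 stops that rose by at least 1 on the log2 scale, open where no site was called; the mock peaks near both ends are stops that do not need CMC.

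The 14 were stops 3355, 3390, 3394, 3418, 3422, 3424, 3428, 3430, 3482, 3504, 3511, 3513, 3544 and 3580. Of these, 3394, 3424, 3482 and 3511 were not called as sites. Stops 3390, 3430 and 3513 met the thresholds in Rnmt cKO but not in control, and their PSU scores did not pass the test between genotypes. The stops were 4.38% of the positions and took 10.9% to 15.2% of the region's read starts in CMC libraries and 2.91% to 4.31% in mock libraries, a gap that their selection fixes. The 10 called sites of the region took 6.89% to 9.84% of its read starts in CMC libraries and 1.57% to 2.13% in mock libraries. The 60 called sites outside the region took 3.83% to 4.69% of the read starts outside it in CMC libraries and 1.09% to 1.26% in mock libraries.

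Joining stops that lay within 4 nucleotides of each other gave a single run of 5 stops, at 3418, 3422, 3424, 3428 and 3430, spaced by 4, 2, 4 and 2 and spanning 13 nucleotides. The other stops stood alone or in pairs, 3390 with 3394 and 3511 with 3513. The longest gap, 52 nucleotides, followed the run. Closely spaced stops share window coverage, and a read that stopped at a later stop never reached an earlier one, so the 5 are not independent measurements.

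At stop 3418, the first of the run, CMC termination was 4.35%, 3.64%, 4.11% and 4.54% in controls 1 to 4 and 4.74%, 6.12%, 4.51% and 3.92% in Rnmt cKO 1 to 4. In mock libraries the values were 0.413%, 0.932%, 0.815% and 0.760% in control and 0.602%, 0.874%, 1.18% and 0.790% in Rnmt cKO. Every CMC library lay above every mock library, and the log2 rise was 2.49 (SE 0.142, edgeR adjusted p = 1.722e-07). The lowest mock value rested on 21 read starts, the fewest at any of the 14 stops in any library.

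Stop 3428 had the same shape at a lower level. CMC termination was 3.36%, 3.03%, 3.03% and 3.27% in control and 3.67%, 4.12%, 3.35% and 2.65% in Rnmt cKO, and mock termination was 0.428% to 0.642% and 0.497% to 0.799%. The rise was 2.44 on the log2 scale (SE 0.135, edgeR adjusted p = 1.295e-07), close to that of 3418.

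The other 3 stops of the run had CMC termination like that of 3418 but a higher mock level. At stop 3422 CMC termination was 4.25% to 4.95% in control and 3.61% to 6.20% in Rnmt cKO, over a mock level of 1.17% to 1.83%, a log2 rise of 1.73 (SE 0.102). At 3424 it was 4.51% to 4.98% and 4.00% to 6.14%, over a mock level of 1.54% to 2.02%, a rise of 1.55 (SE 0.0840). At 3430 it was 4.48% to 4.99% and 4.19% to 6.10%, over 1.12% to 2.82%, a rise of 1.66 (SE 0.149). Stops 3418 and 3428 had the highest mean PSU scores of the run and were picked for this. In all 8 animals their scores exceeded those of 3422, 3424 and 3430, which their selection favours. The order within this pair and among the other 3 varied between animals. Mean mock termination was lowest at 3418 and 3428.

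**Figure D2:**
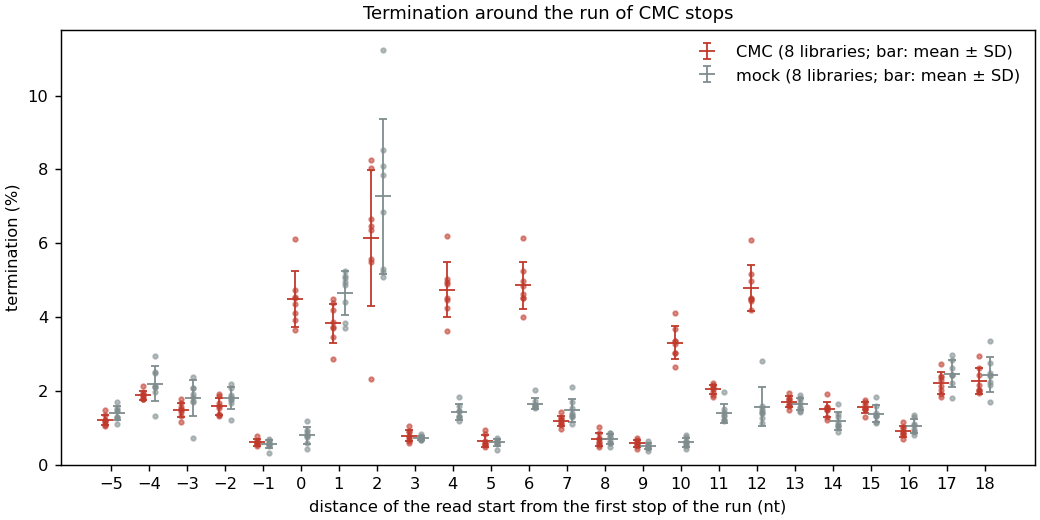
Percent termination in each library from 5 nucleotides before to 18 after the first stop of the run, with CMC in red, mock in grey and lines for the mean and SD of 8 libraries each. The 5 CMC stops rise above mock, while stop 3420 between them is high without CMC as well (mean 7.27% in mock and 6.15% with CMC).

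Positions beside the stops of the run were near or below their mock level. Mean CMC and mock termination were 0.61% and 0.56% at stop 3417 and 0.78% and 0.72% at 3421. The CMC mean was the lower at 3419 (3.83% and 4.65%) and at 3425 (1.18% and 1.48%). Stop 3429, between the last stops of the run, was an exception, at 2.04% with CMC and 1.40% in mock (log2 0.57, edgeR adjusted p = 0.002038).

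Stop 3580 had the largest rise of the region, 2.65 on the log2 scale (SE 0.139, edgeR adjusted p = 8.04e-08). CMC termination was 6.78%, 6.13%, 6.33% and 7.16% in control and 7.33%, 7.16%, 6.32% and 5.37% in Rnmt cKO. Mock termination was 0.708%, 1.31%, 1.17% and 0.959% in control and 0.755%, 1.27%, 1.12% and 1.16% in Rnmt cKO. The CMC and mock values lay far apart in every animal, and the genotypes overlapped under both treatments.

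Stops 3355 and 3504 rose by a like amount. At 3355 CMC termination was 4.22% to 4.93% in control and 3.40% to 5.31% in Rnmt cKO, over mock levels of 0.381% to 0.970% and 0.776% to 1.02% (log2 2.43, SE 0.161). At 3504 it was 3.69% to 4.38% and 4.13% to 5.34%, over 0.733% to 1.07% and 0.717% to 1.01% (log2 2.41, SE 0.0974). At both stops the genotypes overlapped with CMC and in mock.

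At 3544 CMC termination was 2.90% to 3.75% in control and 3.03% to 3.82% in Rnmt cKO, a log2 rise of 2.03 (SE 0.0974). Stop 3390 had 2.42% to 2.56% in control and 2.57% to 3.54% in Rnmt cKO, and 3513 had 2.76% to 2.98% and 3.12% to 3.80%. These 2 rose by 2.00 (SE 0.123) and 2.05 (SE 0.0915), and their mean CMC termination was under the 3% threshold in control and over it in Rnmt cKO. With each of the shorter windows both were called in both genotypes.

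The stops that failed the site call did so on the PSU score. At 3482 CMC termination was 6.07% to 6.71% in control and 6.63% to 7.56% in Rnmt cKO, among the highest of the 14, but mock termination was 1.74% to 2.56% and 2.58% to 3.40%. At 3511 it was 5.12% to 6.08% and 5.83% to 7.15% over mock values of 2.54% to 3.76%, and at 3394 it was 3.70% to 5.12% over mock values of up to 2.43%. Stop 3424 missed by least, with a mean PSU score of 2.97 ± 0.146 (SD, n = 4) in control and 2.95 ± 0.711 in Rnmt cKO, and 3422 passed with 3.51 ± 0.404 and 3.26 ± 0.921.

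**Figure D3:**
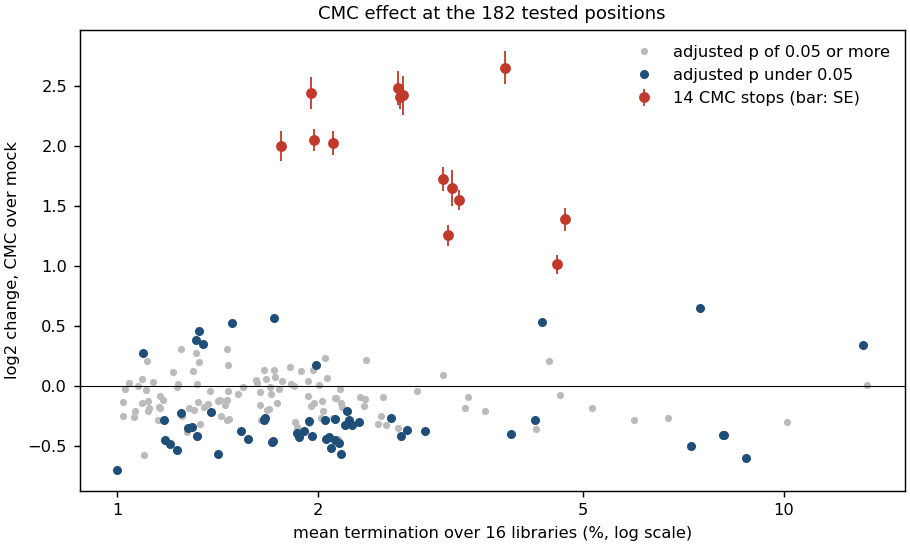
Log2 change of termination with CMC against mean termination for the 182 positions tested in the region. The 14 stops lie between 1.02 and 2.65, above all other positions, the next of which is at 0.65.

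The 45 positions that fell with CMC changed less, with a median log2 change of -0.39 and a range of -0.69 to -0.20. The most negative were stops 3455 (-0.69), 3384 (-0.60), 3383 (-0.56), 3378 (-0.56) and 3381 (-0.53). Taken in order between the CMC stops, 1 of 43 positions tested fell before stop 3355, 8 of 14 from there to 3390, 8 of 14 from 3394 to the run, and 10 of 33 from the run to 3482. Further on the counts were 4 of 16 up to 3504, 0 of 2 up to 3511, 6 of 13 from 3513 to 3544, 3 of 14 up to 3580 and 3 of 13 after it, against the background of 10.2%. On read starts alone, scaled by TMM, 17 positions fell (14 of them among the 45) and 23 rose (21 of them among the 24). The share over all rRNA is not given for the TMM fit, and the 10.2% belongs to the fit with window coverage. With TMM the 5 most negative changes were -0.63, -0.53, -0.46, -0.41 and -0.45 in the order given above, so they kept their direction. How much of the falls came from CMC stops inside the windows was not tested.

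Stops that need no CMC were highest at stops 3305, 3547 and 3304. At 3305 mock termination was 11.3% to 13.1% in control and 12.4% to 15.4% in Rnmt cKO, and CMC termination was 11.6% to 12.9% and 14.0% to 15.1% (log2 change 0.01). At 3304 mock termination was 8.07% to 11.9% and 10.4% to 14.8%, and CMC raised it slightly (log2 0.34, edgeR adjusted p = 0.01189). At 3547 mock termination was 19.4%, 11.1%, 12.3% and 11.6% in control and 15.6%, 7.10%, 5.98% and 8.02% in Rnmt cKO, with both animals numbered 1 above the rest of their genotype.

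The next question was whether loss of Rnmt changed pseudouridine signal in the region. PSU scores passed at 0 of 10 sites by genotype in limma over the 70 called sites of all rRNA (background 0%), 0 had an unadjusted p under 0.05 (background 5.71%), and at 0 of 10 did the genotypes not overlap (background 2.86%). At 6 sites the Rnmt cKO mean was the lower, and at 4 the higher. Without control 1 it was higher at 7 and lower at 3. The balance also turned when Rnmt cKO 4 was left out instead, so it did not rest on control 1 alone.

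Stop 3355 had the smallest p. Its PSU score was 12.6, 4.35, 5.25 and 5.99 in control and 6.28, 5.75, 4.25 and 3.33 in Rnmt cKO, a difference of -2.14 (95% interval -5.71 to 1.43, limma adjusted p = 0.781). Control 1 stood above all others there, and without it the difference was -0.297. At 3504 the difference was 0.72 (-0.829 to 2.27) and at 3430 it was 0.74 (-0.891 to 2.38), both with a limma adjusted p of 0.797.

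Within the run the scores of the genotypes interleaved. Stop 3418 scored 10.5, 3.91, 5.04 and 5.97 in control and 7.88, 7.00, 3.82 and 4.97 in Rnmt cKO, a difference of -0.44 (-3.57 to 2.68). Stop 3428 scored 7.85, 5.02, 4.72 and 5.61 in control and 7.04, 8.30, 4.19 and 3.47 in Rnmt cKO, a difference of -0.05 (-2.58 to 2.47). At 3422 the difference was -0.25 (-1.57 to 1.06). These intervals come from the fit without a block.

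The PSU scores were also taken as paired by replicate number, from correlations in these data. With the number as a block, again 0 of 10 sites passed (limma, background 0%). None of them had an unadjusted p under 0.05, against 7 of the 70 called sites of all rRNA (10%). The interval at 3355 was then -4.44 to 0.17 (limma adjusted p = 0.483), at 3418 -2.38 to 1.49, at 3428 -1.93 to 1.82 and at 3422 -1.71 to 1.20. The block narrowed the first 3 and widened the last, and every one still held 0.

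At 3430 the PSU score was 1.59, 3.53, 3.19 and 3.41 in control and 3.45, 5.43, 2.79 and 3.01 in Rnmt cKO. The low score of control 1 came with a mock termination of 2.82%, against 1.27% to 1.46% in the other controls. Without control 1 the control mean was 3.38, and the site was called in both genotypes.

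**Figure D4:**
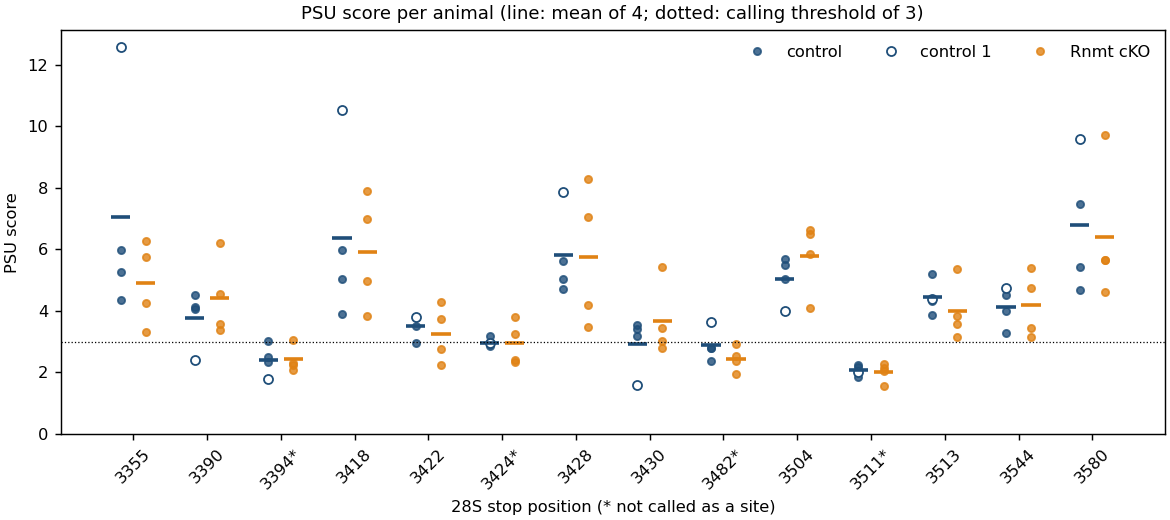
PSU score of each animal at the 14 CMC stops, with control 1 as an open symbol. Control and Rnmt cKO overlap at every called site, and control 1 is, for example, the highest control at stops 3355, 3418, 3428 and 3580 and the lowest at 3390 and 3430.

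CMC termination on its own passed at 0 of 174 positions by genotype (edgeR, background 0%), with 32 at an unadjusted p under 0.05 (18.4%, background 15%), 20 of them higher in Rnmt cKO (background 7.94%) and 12 lower (7.02%). DESeq2 called 4, at stops 3305, 3351, 3438 and 3595 (background 2.81%). Of these 3351 was the one lower in Rnmt cKO, at 1.23%, 1.24%, 1.47% and 1.28% in control and 0.965%, 1.01%, 0.927% and 0.830% in Rnmt cKO (edgeR log2 -0.49, adjusted p = 0.0684). Its groups did not overlap, which was so at 14 of 174 positions (8.05%, background 7.94%).

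Mean CMC termination was higher in Rnmt cKO at 12 of the 14 stops, against 96 of 174 positions tested in the region and 2032 of 4018 over all rRNA. The median log2 difference was 0.119 at the stops, 0.0209 over the region and 0.0027 over all rRNA. The groups did not overlap at 2 of the 14, 3390 (log2 0.33, edgeR adjusted p = 0.172) and 3513 (0.23, adjusted p = 0.274), beside a background of 7.94%. Mean mock termination was also higher in Rnmt cKO at 12 of the 14 stops. Of the 7 that could be tested it was higher at 6, but also at 122 of 188 positions of the region and 2319 of 3985 over all rRNA. The mock groups did not overlap at 3424, 3482 and 3511 (background 5.37%). The CMC effect itself differed between genotypes at 0 of 182 positions (edgeR interaction, background 0%; DESeq2 0, background 0.273%). At an unadjusted p under 0.05 there were 3 (background 6.06%), 1 higher in Rnmt cKO (2.58%) and 2 lower (3.48%). At the 14 stops the interaction was higher in Rnmt cKO at 5 and lower at 9, with a median log2 value of -0.0411 against -0.0351 over all rRNA.

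Mock termination passed at 0 of 188 positions by genotype without a block (edgeR, background 0%; DESeq2 0, background 0.226%), with 25 at an unadjusted p under 0.05 (13.3%, background 6.22%), 18 of them higher in Rnmt cKO (background 3.61%) and 7 lower (2.61%). The genotypes did not overlap at 16 of 188 positions (8.51%, background 5.37%). The labels do not say that the numbers pair animals, and the mock libraries were taken as paired from correlations in these data. With the number as a block 4 of 188 passed (2.13%, background 1.05%). These were 3477, 3478 and 3490, lower in Rnmt cKO, and 3497, higher. Stops 3477 and 3478 lie shortly before CMC stop 3482, and 3490 and 3497 lie between it and CMC stop 3504.

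At 3490 mock termination was 8.56%, 2.01%, 2.89% and 2.92% in control and 4.75%, 0.999%, 0.936% and 1.14% in Rnmt cKO (log2 -1.19 with the block, edgeR adjusted p = 0.01705). At 3478 it was 10.3%, 6.44%, 7.34% and 6.88% in control and 7.14%, 2.83%, 3.34% and 4.35% in Rnmt cKO (-0.88, adjusted p = 0.03989). At 3497 it was 1.59%, 2.47%, 2.52% and 2.52% in control and 2.37%, 4.01%, 4.85% and 3.68% in Rnmt cKO (0.69, adjusted p = 0.03808). Each Rnmt cKO animal lay on the same side of the control with its number, and the animals numbered 1 were set off from the others in both genotypes.

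Leaving out control 1 or Rnmt cKO 1 gave the same 9 calls with the block, since either takes the whole pair out of the comparison. Leaving out any other animal gave 0, so the 4 calls depended on each pair numbered 2 to 4. The shares over all rRNA are not given for these fits, so the counts say nothing particular to the region. At 3478 CMC termination was 8.21% to 10.2% in control and 7.14% to 9.67% in Rnmt cKO, with overlapping groups. Mock stops carry no CMC adduct, and what these differences come from was not tested.

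**Figure D5:**
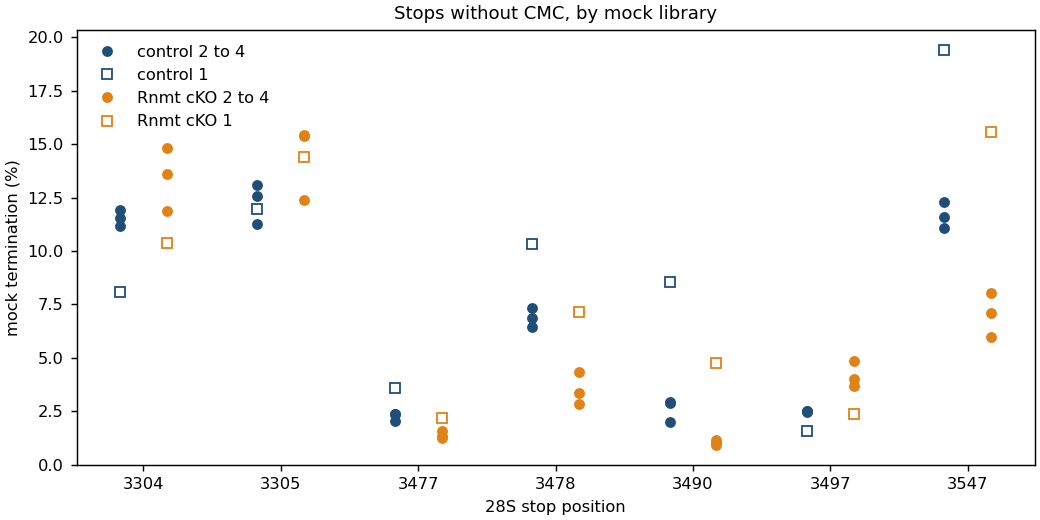
Mock termination in percent at the 3 highest mock stops (3304, 3305 and 3547) and the 4 positions called with the block (3477, 3478, 3490 and 3497) in each mock library, with the animals numbered 1 as open squares. Control lies above Rnmt cKO of the same number at 3477, 3478, 3490 and 3547 and below it at 3304 and 3497.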

How the data were processed

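Per the study's methods, the authors extracted barcodes, trimmed adapters, aligned reads with bowtie2 to custom rRNA sequences and removed PCR duplicates by barcode. The submitters' processing notes name STAR 2.5.2b and mm10 instead. The deposited values are counts of read starts per nucleotide, not normalised, and hold no coverage. The labels name a naive CD4 kit and the methods a CD4 kit for cell isolation.

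The range ran from read start 3281 to 3600. Termination used windows of 65 nucleotides, 75 cycles less a barcode of 10. Tests covered every rRNA position whose mean termination reached 1%, except the first nucleotide of each rRNA, at a Benjamini-Hochberg adjusted p under 0.05: edgeR 4.0.16 on read starts with log window coverage as offset, and limma 3.58.1 on PSU scores, both 2-sided. Alternatives were DESeq2 1.42.0, TMM, other windows and thresholds, replicate blocks and leaving out each animal. R 4.3.3, Python 3.11.15 and matplotlib 3.10.9 were used. The tests were also run on simulated data that held no effect of the animal or of a shared number. That run therefore cannot show how the tests behave where such effects are present.

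Named were all called sites, the 6 nucleotides listed with the range (3354, 3389, 3393, 3423, 3481 and 3512), the 3 highest mock stops, the 3 smallest PSU p-values, the 5 largest falls with CMC, positions past 0.05 between genotypes, and positions within 5 nucleotides of a stop. The range, lists and tests were chosen with earlier results of these data known.

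Numbers 1 to 4 are shared by the genotypes. Deviations from the genotype mean correlated between same-numbered animals with r of 0.658, 0.424, 0.169 and 0.381 for mock termination and 0.578, 0.127, 0.368 and 0.167 for PSU scores, so both were taken as paired, and with negative r for CMC termination, which was not. The study treats animals as biological replicates. In all 24 pairs of libraries within a group the counts differed by more than sampling noise (chi-square over its degrees of freedom at least 2.50).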

Additional observations from a re-analysis of the deposited data

Results flagged for a closer look

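Of 100 groups of 4 animals looked at, 9 held a value far from the other 3 by Dixon's test, where chance gives about 1 in 20 groups, or 5. In the mock library of control 1, termination was 1.01% at stop 3390 (others 0.569% to 0.619%), 2.82% at 3430 (1.27% to 1.46%) and 19.4% at 3547 (11.1% to 12.3%), and its share of 28S read starts in the region was 4.47% (6.56% to 6.78%). In control CMC libraries, animal 4 had 4.99% at 3430 (4.48% to 4.51%), animal 2 had 3.69% at 3504 (4.27% to 4.38%) and 2.76% at 3513 (2.96% to 2.98%), and animal 1 had 13.4% at 3304 (14.2% to 14.3%). The mock library of Rnmt cKO 1 had 0.596% at 3513 (0.987% to 1.01%).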

How the results depend on the processing

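Of 518 alternative values, 504 were rated the same. For values at single positions this meant the same direction and side of the threshold. For counts it meant only staying within a set ratio of the main count, whichever positions were counted. The 69 CMC-dependent positions became 38 at a mean termination of at least 2% (15 higher, 23 lower) and 40 on read starts alone with TMM (23 higher, 17 lower), and ranged from 56 to 87 when 1 animal was left out. Over all rRNA the main count was 874, with 672 where the region had 56 (without control 3) and 1140 where it had 87 (without control 1). Counts over all rRNA are not given for the 38 and the 40. Called sites fell from 10 to 1 at a CMC termination of at least 5% and were 15 at a PSU score of at least 2, and shorter windows gave 10 in each genotype. DESeq2 called 4 positions for CMC termination by genotype, where edgeR called 0. Mock termination by genotype gave 4 calls with the replicate block (2.13%, background 1.05%). It gave 9 without the animals numbered 1, with no share over all rRNA given, so the rise from 4 says nothing particular to the region. That alternative was chosen after the data were seen, as was the block without each animal in turn. The block changed no other genotype call. The CMC change at 3305 (0.01) was -0.0147 for a window of 50 nucleotides, -0.0351 for 40, -0.0139 for 30 and -0.0025 with TMM, and ranged from -0.0315 to 0.0257 with 1 animal left out. With TMM the falls at 3383 (-0.56 to -0.46) and 3381 (-0.53 to -0.45) no longer passed, at changes nearly as large. The causes were not tested.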
